A study of Mus musculus with 12 samples.

Results

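The regions described here are stretches of chromatin at protein-coding promoters with a peak in all 4 H3K27ac samples of the study. These samples came from cortical interneurons (CINs) and from the remaining cells of the cortex (non-CINs). Peaks 500 bp or less apart were joined within each H3K27ac list, and a common region was a stretch covered by all 4 lists. Of 27746 common regions, 26813 were shorter than 3000 bp, and 5075 of these (18.3% of all common regions) had their centre between 1000 bp upstream and 100 bp downstream of the transcription start site (TSS) of a protein-coding transcript. These 5075 promoter regions are compared below with the 21738 other common regions shorter than 3000 bp.

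Both populations came from the cerebral cortex of Gad67-GFP heterozygote pups at postnatal day 2 (P2), and these ChIP samples had no other genotype, age or treatment. GFP-positive cells were collected by fluorescence-activated cell sorting as CINs, and GFP-negative cells as non-CINs, a mixture that the study describes as enriched for glutamatergic projection neurons and glia. Each population was processed in 2 biological replicates, each made from the pooled tissue of several litters, by native ChIP, in which chromatin is digested with MNase and is not cross-linked. Both H3K27ac and H3K27me3 were profiled, which gives 8 peak lists, each called against an input. In pooled, sorted tissue, a weaker signal in the same number of cells cannot be told apart from fewer cells of a type.

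Acetylation of lysine 27 of histone H3 is found on the nucleosomes that flank active promoters and enhancers, and is placed by the acetyltransferases CBP and p300. Trimethylation of the same lysine, placed by Polycomb repressive complex 2, marks silent or poised genes, and the same residue cannot carry both marks. Many promoters in mammals lie in CpG islands and serve housekeeping genes that every cell uses, whereas the genes that set cell types apart are often controlled by distant enhancers and by promoters used in few cell types.

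Sequence just upstream of the TSS is shown for 3 sets of promoters, 4 of the 10 whose lowest H3K27ac percentile was highest, 4 with higher H3K27ac in CINs and 4 with higher H3K27ac in non-CINs, as examples of the base composition of the promoters. Each line gives 100 bases ending 1 base before the TSS, 5′ to 3′ on the strand of the gene, from the RefSeq copy of GRCm38.p6, the assembly called mm10. Capitals mark matches, on either strand, to 13 short motifs, which are spelled out further on. Of these 12 windows, 7 lay inside the common region itself, and those of Tubb3, Myt1l, Taok3, Apba1 and Calr4 lay beside it. The first 4 are from the 10 strongest promoters.
Hnrnpc (chr14:52104029-52104128, minus strand): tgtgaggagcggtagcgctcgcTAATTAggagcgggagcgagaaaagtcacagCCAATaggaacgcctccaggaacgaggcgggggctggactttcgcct
Birc2 (chr9:7837065-7837164, minus strand): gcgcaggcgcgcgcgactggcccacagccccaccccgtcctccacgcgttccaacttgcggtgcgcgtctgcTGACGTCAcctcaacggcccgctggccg
Zfp143 (chr7:110061610-110061709, plus strand): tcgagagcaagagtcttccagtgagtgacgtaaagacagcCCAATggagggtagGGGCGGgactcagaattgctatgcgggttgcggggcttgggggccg
0610009B22Rik (chr11:51688875-51688974, minus strand): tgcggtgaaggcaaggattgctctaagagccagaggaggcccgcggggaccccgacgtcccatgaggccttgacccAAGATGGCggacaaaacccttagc
All 4 were rich in G and C, with 60 to 74 such bases in 100, and held 6 to 15 CpG dinucleotides. The GC box GGGCGG was matched at Zfp143, the CCAAT box at Hnrnpc and Zfp143, the cAMP response element TGACGTCA at Birc2 and the YY1 motif AAGATGGC at 0610009B22Rik. The next 4 had higher H3K27ac in CINs.
Tubb3 (chr8:123411324-123411423, plus strand): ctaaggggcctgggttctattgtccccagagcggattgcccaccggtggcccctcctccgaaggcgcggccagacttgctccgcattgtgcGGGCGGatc
Myt1l (chr12:29528284-29528383, plus strand): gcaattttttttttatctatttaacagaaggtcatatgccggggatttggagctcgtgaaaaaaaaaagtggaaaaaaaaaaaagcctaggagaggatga
Tmcc1 (chr6:116107860-116107959, minus strand): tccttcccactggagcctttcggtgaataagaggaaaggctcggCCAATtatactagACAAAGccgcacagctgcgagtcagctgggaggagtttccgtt
Taok3 (chr5:117120029-117120128, plus strand): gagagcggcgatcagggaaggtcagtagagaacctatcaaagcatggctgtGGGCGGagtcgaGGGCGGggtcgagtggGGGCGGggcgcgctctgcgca
Their composition was more varied. The window of Taok3 held 3 GC boxes and 10 CpG dinucleotides, that of Tubb3 held 1 GC box and 8 CpG dinucleotides, and that of Myt1l held 34 G or C bases, 2 CpG dinucleotides and none of the motifs. The last 4 had higher H3K27ac in non-CINs.
Apba1 (chr19:23904357-23904456, plus strand): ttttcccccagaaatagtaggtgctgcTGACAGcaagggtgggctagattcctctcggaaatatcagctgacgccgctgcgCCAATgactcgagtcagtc
Ankrd9 (chr12:110978619-110978718, minus strand): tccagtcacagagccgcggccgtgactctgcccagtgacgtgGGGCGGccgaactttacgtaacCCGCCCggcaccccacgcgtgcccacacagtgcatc
Calr4 (chr4:109235162-109235261, plus strand): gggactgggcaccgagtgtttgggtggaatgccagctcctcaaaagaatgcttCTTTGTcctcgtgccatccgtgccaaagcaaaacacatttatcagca
Crybb1 (chr5:112255715-112255814, plus strand): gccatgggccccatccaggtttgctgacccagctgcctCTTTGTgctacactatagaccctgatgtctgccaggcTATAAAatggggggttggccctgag
Here Ankrd9 had a CpG-rich window with 2 GC boxes, and Crybb1 had a TATA box, TATAAA, and no CpG dinucleotide in its 100 bases.

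The promoter regions belonged to 5595 genes, 25.6% of the 21864 protein-coding genes with a protein-coding transcript in the annotation. A further 4502 genes had a common region over a promoter window that was not counted, because its centre lay outside the window or because it was too long, and 9488 genes had no H3K27ac peak over a promoter window in any list. Most of the counted genes had 1 region, and 116 genes had 2 or more. Conversely, 623 regions (12.3%) lay in the promoters of 2 or more genes, and in 594 of them these genes were on opposite strands, so that the region cannot be assigned to either gene.

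The regions had a median length of 1134 bp, against 706 bp for the other common regions, and 4336 of them (85.4%) contained a protein-coding TSS. Their centres were a median of 53 bp upstream of the nearest TSS, and 3364 centres (66.3%) were upstream, in a window that by definition reaches farther upstream than downstream. Around the TSS the deposited peaks had 2 shoulders with a dip between them. In CIN replicate 1, 92.6% of the regions were under a peak 300 bp upstream of the TSS, 83.8% 50 bp upstream and 92.0% 150 bp downstream. In non-CIN replicate 2, the list with the lowest coverage at the TSS, these shares were 87.1%, 74.9% and 82.9%. The dip just upstream of the TSS was present in all 4 lists.

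**Figure D1:**
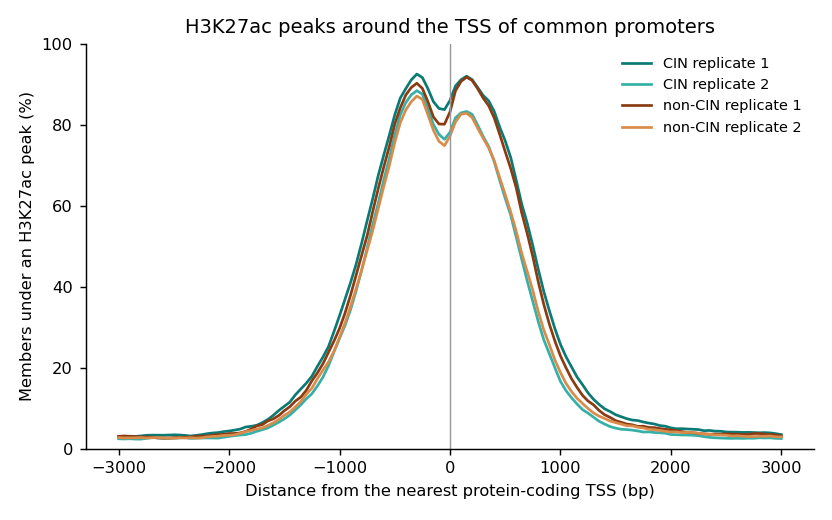
The share of the 5075 promoter regions that lay under an H3K27ac peak (y axis, percent) is plotted against the distance from the nearest protein-coding TSS (x axis, bp, negative values upstream), with 1 line for each list. All 4 lines have a shoulder on each side of the TSS and a dip just upstream of it, where the share is 83.8% in CIN replicate 1 and 74.9% in non-CIN replicate 2.

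The limits of the definition cut through a continuous range of regions. The longest regions inside the length limit were at Camk2d (2999 bp) and Sox5 (2996 bp), and the shortest outside it at Isca1 (3002 bp) and Gpr108 (3004 bp), and 156 regions with a centre in a promoter were left out for their length. On the upstream side, the last centres inside were at Hist1h2bc (998 bp from the TSS) and Rap2c (990 bp), and the first outside at Ppp2r2b (1004 bp) and Armcx2 (1005 bp). On the downstream side, Nucb1 and Mpzl3 were inside at 100 bp, and Stx6 and Washc4 outside at 101 bp. Of these, the region left out at Ppp2r2b would have counted as higher in CINs, with percentiles of 63.9 and 65.9 in CINs against 46.9 and 11.9 in non-CINs.

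Strength was read as a percentile. The highest fold enrichment over input of the deposited peaks that overlap a region was ranked among all peaks of the same list, so that 100 is the strongest peak of that list. The 4 H3K27ac lists held 46040 to 62505 peaks. The percentile is relative to a list and says nothing of the absolute amount of acetylation, and it describes a peak as deposited, which can reach well beyond the common region. The number of reads behind a peak was not used here, so that the precision that depth gives to a percentile is unknown, and the agreement of the 2 replicates is the only error given.

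The promoter regions were among the stronger peaks of every list. Their median percentile was 88.1 and 84.5 in CIN replicates 1 and 2, and 87.4 and 81.4 in non-CIN replicates 1 and 2, where the other common regions had medians of 68.7, 59.5, 70.1 and 63.0. In all 4 lists 1071 of the promoter regions (21.1%) were at the 90th percentile or above, against 5.17% of the other common regions. Only 57 (1.12%) were under the 50th percentile in all 4 lists, against 7.42% of the others. Longer regions tended to be stronger, with a Spearman correlation of 0.64 between length and mean percentile across the 5075 regions, which share the same 4 libraries and are not independent.

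**Figure D2:**
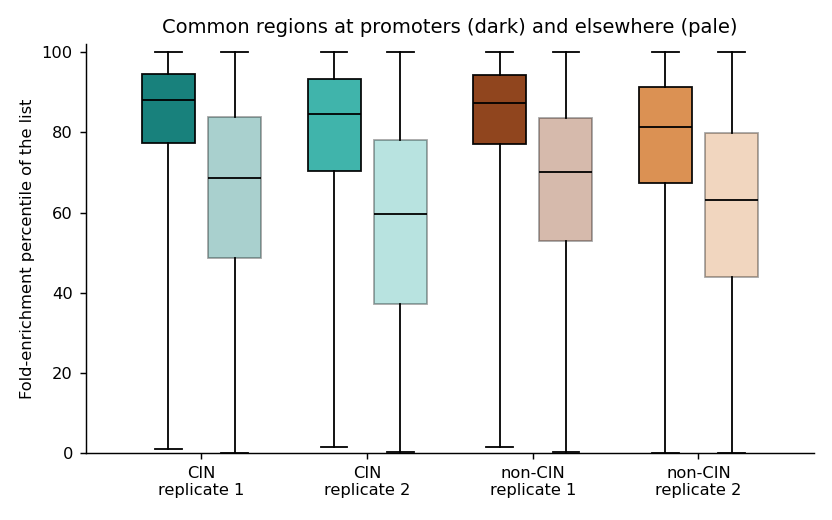
The fold-enrichment percentile within its list (y axis) is shown for each H3K27ac list (x axis) for the promoter regions (dark boxes) and the other common regions shorter than 3000 bp (pale boxes). Boxes span the quartiles with a line at the median and whiskers reach the lowest and highest value, and the dark boxes have medians of 81.4 to 88.1 where the pale boxes have medians of 59.5 to 70.1.

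Replicates and populations differed by similar amounts at these promoters. The median absolute difference between the replicates of a population was 4.90 percentile points in CINs and 6.20 points in non-CINs. Between CINs and non-CINs it was 4.74 points in replicate 1 and 5.14 points in replicate 2. At the other common regions the differences were wider, at 10.6 and 9.67 points between replicates and 11.9 and 11.6 points between populations. At a typical promoter region the populations thus differed by about as much as replicates did.

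The 10 promoters with the highest lowest percentile were those of Ptp4a1, Hnrnpa3, Usp38, Nbr1, Hnrnpc, Birc2, Zfp143, Clcn4, 0610009B22Rik and Stt3a. Hnrnpa3 and Hnrnpc encode nuclear RNA-binding proteins that package and process pre-mRNA. The 4 percentiles at Hnrnpc (chr14:52103205-52104873) were 99.96 and 99.95 in CINs against 99.89 and 99.83 in non-CINs. At Hnrnpa3 (chr2:75657725-75658978), where the region was centred 910 bp upstream of the TSS, they were 99.99 and 99.99 in CINs against 99.9975 and 99.95 in non-CINs. Both were at the very top of every list, and their 4 values lay within 1 point.

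Usp38 encodes a deubiquitinase, Birc2 an inhibitor of apoptosis that acts as a ubiquitin ligase, and Ptp4a1 a protein tyrosine phosphatase. The region at Ptp4a1 (chr1:30948462-30950980) had percentiles of 99.96 and 99.99 in CINs against 99.97 and 99.98 in non-CINs. Zfp143 is a zinc finger factor that binds promoters, Nbr1 a receptor of selective autophagy, Clcn4 a chloride/proton exchanger of endosomes and Stt3a the catalytic subunit of an oligosaccharyltransferase. The lowest value over all 10 promoters and 4 lists was 99.66, at Stt3a in non-CIN replicate 2, so that all 10 lay in the top 1% of every list. None of the 10 regions had H3K27me3 in both lists of a population.

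Lists of genes that all cells use had 38.7% to 60.7% of their genes among the counted promoters. The lists were chosen with earlier results of these data known, and their counts are descriptions. Of 79 cytosolic ribosomal protein genes, 43 had a region, with median percentiles of 95.2 and 94.8 in CINs against 95.7 and 91.0 in non-CINs, and another 34 had a common region over a promoter that did not meet the definition. For respiratory chain subunits, 17 of 28 genes had a region, for translation factors 18 of 31, for RNA polymerase II subunits 7 of 12, for splicing factors 15 of 34 and for proteasome subunits 12 of 31. Over all genes the share was 25.6%. Every ribosomal, proteasome and respiratory chain gene in the lists had an H3K27ac peak over a promoter in at least 1 list.

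Shares were lower in the neuronal and vascular lists. Of 42 pan-neuronal genes 9 had a region, of 31 projection neuron and pallial genes 8, of 36 interneuron genes 5 and of 13 oligodendrocyte lineage genes 3. None of the 15 microglia genes or the 13 endothelial and pericyte genes had one. Of the 21 astrocyte and radial glia genes 8 had a region, and all 21 had a common region over a promoter window, in GFP-positive as in GFP-negative cells. Of the 11 defining interneuron markers, among them Gad1, Gad2, Slc32a1, Dlx1, Dlx2 and Lhx6, none had a counted region. A promoter peak was called at 10 and 9 of the 11 in the CIN lists and at 1 and 2 in the non-CIN lists, the pattern that the sample labels call for, and 7 of the 11 had one in both CIN lists and in neither non-CIN list. The 8 defining projection neuron markers had promoter peaks at 5 and 4 genes in CINs and at 4 and 6 genes in non-CINs, so that they did not set the populations apart. All 4 defining astrocyte markers and all 4 oligodendrocyte lineage markers had a promoter peak in every list, those of the GFP-positive cells included. Their part in the values below was not tested.

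**Figure D3:**
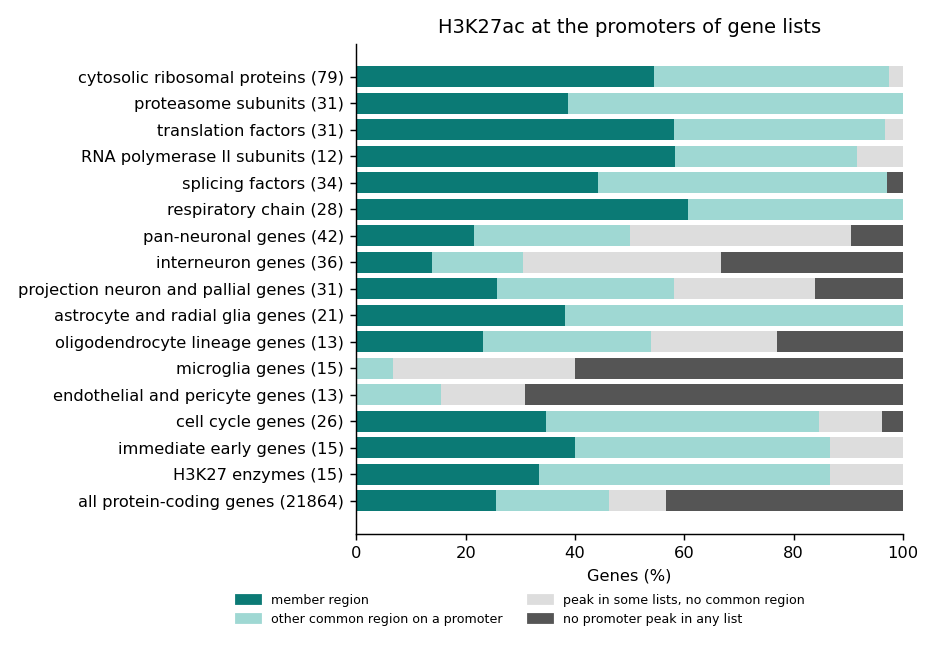
The share of genes in each list (x axis, percent; the number of genes is given after each name) is divided into those with a promoter region as defined here, those with another common region over a promoter window, those with a peak in some lists but no common region and those with no promoter peak in any list. Ribosomal protein genes (43 of 79) and respiratory chain genes (17 of 28) are largely in the first class, and microglia genes (0 of 15) have none in it.

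H3K27ac differed between populations at a minority of the promoters. A region was counted as higher in 1 population where its percentile was at least 10 points higher there in replicate 1 and again in replicate 2. By this rule 303 promoter regions (5.97%) were higher in CINs, where 9.80% of all common regions were, and 196 (3.86%) were higher in non-CINs, where 15.5% of all common regions were. In 259 of the 303 both CIN values were also above both non-CIN values (8.26% of all common regions met this), and 163 of the 196 showed the reverse (13.7% of all common regions). These sets were chosen by the values described here, and no test was made of the difference that defines them. With 2 lists a population, an exact permutation test of a single region cannot give a two-sided p below 0.33.

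Regions were also chosen by the difference in a single replicate and read in the other. This is no check of the 303 and 196, which were chosen by both replicates and are among the regions read here. Of 684 promoter regions at least 10 points higher in CINs in replicate 1, 517 (75.6%) were also higher in CINs in replicate 2, by a median of 8.53 points, where 62.7% of all 5075 regions were higher in CINs in replicate 2 and the median was 1.64 points. Of 619 regions at least 10 points higher in non-CINs in replicate 1, 387 (62.5%) were higher in non-CINs in replicate 2, against 37.3% of all regions. Starting from replicate 2, 638 of 906 (70.4%) and 348 of 499 (69.7%) had the same sign in replicate 1, against 50.7% and 49.3% of all regions. The direction was thus kept more often than over all promoter regions, while the size of the difference shrank in the replicate that was not used for the choice.

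The counts of differing promoters changed when single libraries were left out. Leaving out a list also redraws the common regions, and the list that remains is then compared with both lists of the other population. The counts are therefore not like for like with those of the main rule, and the number of regions behind each is not reported here. Without CIN replicate 2 the promoters higher in CINs numbered 540, and without non-CIN replicate 1 they numbered 775. They numbered 219 without CIN replicate 1. Those higher in non-CINs numbered 423 without CIN replicate 1 and 468 without non-CIN replicate 2, but 162 without non-CIN replicate 1. The genes changed as well. Without non-CIN replicate 2, 150 of the 300 genes with a promoter higher in CINs were still called, and without CIN replicate 2, 106 of the 192 genes with one higher in non-CINs. With replicate 2 alone there were 930 and 530, and with replicate 1 alone 866 and 758, since a difference was then needed in 1 replicate only.

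**Figure D4:**
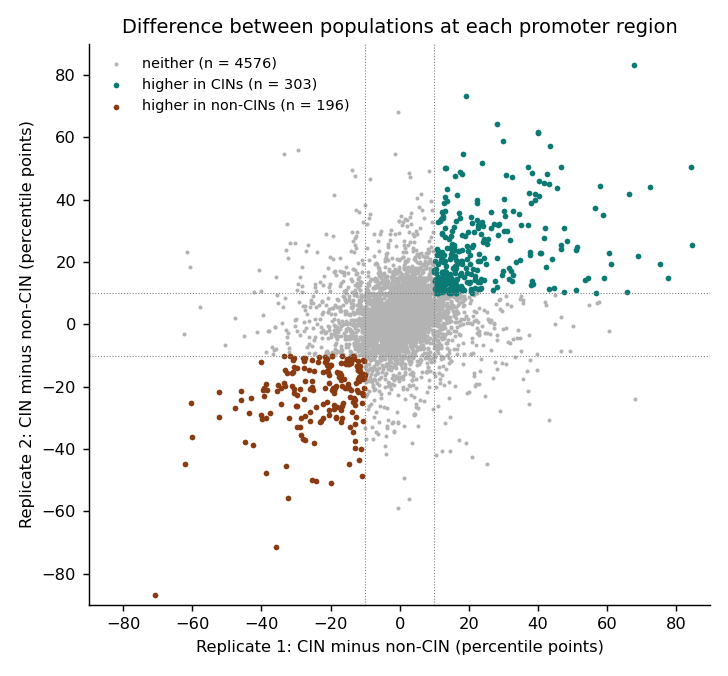
Each point is 1 of the 5075 promoter regions, placed by the CIN minus non-CIN difference of its percentile in replicate 1 (x axis, percentile points) and in replicate 2 (y axis). Dotted lines mark 10 points, and the 303 regions past them in the upper right are higher in CINs and the 196 in the lower left higher in non-CINs, while 4576 regions are in neither set.

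The differing promoters were shorter and weaker than the rest. The median length was 684 bp where CINs were higher and 701.5 bp where non-CINs were higher, against 1176 bp for the 4576 regions in neither set, and 67.7% and 69.9% of them contained a TSS against 87.3%. Among regions with a mean percentile of 90 or more, 5 of 1693 were higher in CINs and 2 in non-CINs, but a region near the top of every list has little room to differ by 10 points. Between the 40th and the 60th percentile 72 of 456 (15.8%) were higher in CINs and 66 (14.5%) in non-CINs. Other common regions of that strength were higher in CINs in 14.6% and in non-CINs in 26.4%. Between the 60th and the 80th percentile the shares were 10.6% and 6.44% at promoters and 13.4% and 17.9% elsewhere. In all 5 bands of strength examined, the share higher in non-CINs was lower at promoters than at the other common regions, a description for which no test was made.

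The extent of the peaks moved with their strength. At promoters higher in CINs the longest overlapping peak had a median length of 1346 and 993 bp in the CIN lists and 958 and 692 bp in the non-CIN lists. At promoters higher in non-CINs the CIN lists had 1006 and 756 bp, and the non-CIN lists 1222 and 968 bp. In both sets the median was longer, in each replicate, in the population with the higher percentile.

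The 12 largest differences in favour of CINs were at Tubb3, Myt1l, Tmcc1, St8sia4, Arhgap33, Taok3, Fam102b and 5 other genes described here, which were not tested for a shared function. Tubb3, the neuron-specific class III beta-tubulin, had percentiles of 89.4 and 83.3 in CINs against 21.7 and 0.192 in non-CINs. Its common region (chr8:123410350-123410635) was centred 932 bp upstream of the TSS, and the peaks that overlap it were 5327 and 2780 bp long in CINs but 514 and 286 bp in non-CINs. What was common to all samples at Tubb3 was thus a short stretch at the edge of a much wider CIN peak.

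Myt1l, a zinc finger factor that represses non-neuronal genes in neurons, had percentiles of 98.8 and 98.1 in CINs against 14.5 and 47.7 in non-CINs (chr12:29527075-29527740). Its peaks were 3745 and 3410 bp long in CINs but 666 and 758 bp in non-CINs. Scrt2, a zinc finger repressor of the Scratch family expressed in newborn neurons, had percentiles of 92.8 and 85.1 in CINs against 49.3 and 27.8 in non-CINs (chr2:152080536-152081391). Srrm4, a splicing regulator of neuronal microexons, had 89.5 and 80.1 in CINs against 46.9 and 32.0 in non-CINs. At all 3 genes the CIN values lay far above the non-CIN values, with a gap of more than 30 points between the lower CIN and the higher non-CIN value.

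Slitrk3, an adhesion protein of inhibitory synapses, had percentiles of 93.7 and 80.6 in CINs against 27.4 and 38.6 in non-CINs (chr3:73057298-73057629). St8sia4, a sialyltransferase that adds polysialic acid to the neural cell adhesion molecule, had 84.9 and 77.5 in CINs against 26.8 and 33.2 in non-CINs. Nell2, a secreted glycoprotein of neurons, had 72.5 and 55.5 in CINs against 30.8 and 10.1 in non-CINs. The values did not overlap between populations at any of the 3.

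Among signalling genes, Camk2n2, an inhibitor of calcium/calmodulin-dependent kinase II, had percentiles of 75.3 and 68.7 in CINs against 34.9 and 27.5 in non-CINs. Taok3, a kinase of the Ste20 family, had 82.3 and 67.2 in CINs against 36.7 and 23.6 in non-CINs. Arhgap33, a GTPase-activating protein, had 84.5 and 67.4 in CINs against 12.02 and 23.5 in non-CINs. Tmcc1, a membrane protein of the endoplasmic reticulum, and Fam102b completed the 12, and their differences were at least 46.6 and 43.2 points in each replicate. The TSS at Tmcc1 (chr6:116107859) was inside the gene, whose 5′ end is at 116193486. All 12 promoters kept their 4 values apart, with a difference of at least 40.4 points in each replicate.

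On the non-CIN side, the largest difference was at Apba1, an adaptor protein of neuronal vesicle traffic, with percentiles of 21.4 and 11.1 in CINs against 92.4 and 97.9 in non-CINs (chr19:23903231-23903737). As at Tubb3, the region was the edge of a wider peak. Its peaks were 3713 and 3977 bp long in non-CINs and 411 and 572 bp in CINs. The region was centred 973 bp upstream of a TSS (chr19:23904457) inside the gene, whose 5′ end is at 23758887. Nes, the intermediate filament protein nestin of neural progenitors, had percentiles of 49.6 and 16.4 in CINs against 85.3 and 87.9 in non-CINs (chr3:87970448-87970904), with peaks of 4814 and 4832 bp in non-CINs and 1102 and 457 bp in CINs. Here too the populations did not overlap.

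Plk1, a kinase of mitotic entry, had percentiles of 42.3 and 50.4 in CINs against 82.1 and 80.8 in non-CINs (chr7:122158818-122159318). Rasgrp1, a guanine nucleotide exchange factor for Ras, had 6.23 and 23.8 in CINs against 66.3 and 59.99 in non-CINs. Adgrv1, a very large adhesion receptor, had 47.7 and 49.6 in CINs against 79.6 and 79.6 in non-CINs at 1 of its 2 regions. At the other, the CIN minus non-CIN difference was -3.16 points in replicate 1 and 17.2 in replicate 2. The 2 replicates of each population were close together at Plk1 and the first Adgrv1 region, and the gap between populations was about 30 points.

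Agbl4, a carboxypeptidase that removes glutamates from tubulin, had percentiles of 31.7 and 3.28 in CINs against 74.1 and 41.9 in non-CINs, with a wide spread between the replicates of each population. Crybb1, which encodes a lens crystallin, had 22.3 and 11.2 in CINs against 67.2 and 49.1 in non-CINs. Calr4, of the calreticulin family, had 29.1 and 12.1 in CINs against 67.9 and 59.7 in non-CINs. Ankrd9, Lrrc9, 2810459M11Rik and Ddt, the tautomerase gene, completed the 12. All 12 kept their 4 values apart, with a difference of at least 29.9 points in each replicate.

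**Figure D5:**
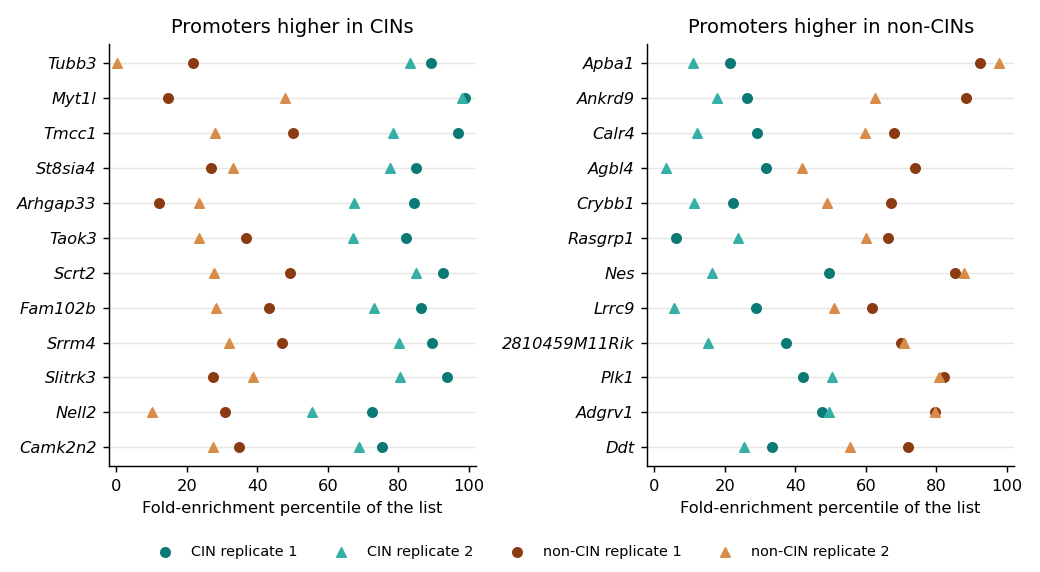
The 4 percentiles (x axis, fold-enrichment percentile of the list) are shown for the 12 promoters with the largest difference in favour of CINs (left) and of non-CINs (right), with circles for replicate 1 and triangles for replicate 2. At all 24 promoters the CIN points (green) and non-CIN points (brown) are separate, a description of regions that were chosen for large differences in these values.

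In the gene lists, the astrocyte and radial glia genes had the largest share of differing promoters, with 5 of 8 higher in non-CINs and none higher in CINs. Over all promoter regions 3.86% were higher in non-CINs. Aldh1l1, a folate enzyme of astrocytes, had percentiles of 65.03 and 60.5 in CINs against 95.6 and 74.2 in non-CINs, and Gfap, the glial intermediate filament, had 75.9 and 70.2 in CINs against 90.7 and 82.4 in non-CINs. Gja1, the gap junction protein connexin 43, had 62.7 and 79.3 in CINs against 93.7 and 90.6 in non-CINs, and Hes1, a target of Notch that maintains progenitors, had 70.5 and 84.7 in CINs against 85.1 and 97.5 in non-CINs. Nes, described above, was the fifth. The other 3, Aqp4, Apoe and Aldoc, did not meet the rule. Aqp4, the water channel of astrocytes, pointed in opposite directions in the replicates, with 73.8 and 53.8 in CINs against 66.9 and 78.2 in non-CINs.

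By definition these 8 promoter regions had a peak in every list, GFP-positive cells included, so that a peak there is no finding. Their median percentile was 71.4 and 71.6 in CINs against 85.2 and 88.9 in non-CINs. The definition admits only differences of degree between called peaks.

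Of the 9 pan-neuronal promoter regions, Tubb3 and Stmn1, the microtubule regulator stathmin, were higher in CINs and none was higher in non-CINs, where 5.97% and 3.86% of all promoter regions were. Stmn1 had percentiles of 98.2 and 96.7 in CINs against 78.1 and 83.4 in non-CINs. Mapt, the microtubule protein tau, had 79.7 and 84.0 in CINs against 87.1 and 90.2 in non-CINs. Nlgn2, an adhesion protein of inhibitory synapses, had 97.4 and 95.8 in CINs against 95.7 and 91.4 in non-CINs, and was strong in all samples.

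The few counted interneuron genes did not move together. Prox1, a homeobox factor of interneurons from the caudal ganglionic eminence, was higher in CINs, with 92.5 and 91.1 against 80.1 and 67.9 in non-CINs. Maf, a basic leucine zipper factor, was higher in non-CINs, with 42.5 and 49.0 in CINs against 57.3 and 61.7 in non-CINs. Sox6 had 62.1 and 69.4 in CINs against 77.7 and 76.6 in non-CINs, and Satb1 had 72.7 and 68.2 in CINs against 69.1 and 61.4 in non-CINs. By definition these are interneuron genes with promoter acetylation in the GFP-negative cells as well.

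Of the projection neuron and pallial genes, Fezf2, a determinant of subcerebral neurons, had 50.3 and 27.8 in CINs against 58.5 and 53.4 in non-CINs, and its difference of 8.20 points in replicate 1 was below the limit. Mef2c, a factor of neuronal maturation, was higher in CINs at 1 of its 2 regions, with 84.3 and 71.3 in CINs against 68.0 and 61.3 in non-CINs. Its difference of 10.02 points in replicate 2 was just past the limit.

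Outside the cell type lists, Mcm4 and Plk1 of the 9 cell cycle regions were higher in non-CINs, as 3.86% of all promoter regions were. Mcm4, a subunit of the replicative helicase, had percentiles of 83.6 and 86.1 in CINs against 97.95 and 96.8 in non-CINs, in a region shared with the promoter of Prkdc on the opposite strand. Arc, the activity-regulated cytoskeletal gene, was higher in non-CINs among 6 immediate early genes, with 39.0 and 2.53 in CINs against 49.8 and 27.9 in non-CINs, and its values overlapped between populations. Of the 44 ribosomal, 15 splicing, 17 respiratory chain and 7 RNA polymerase II regions, none met the rule in either direction, where 5.97% and 3.86% of all promoter regions did. The median percentile of each of these gene lists was at or above 86.2 in all 4 samples, a range in which few promoter regions of any kind met the rule, so that nothing particular to these genes follows from the count. Exceptions among the housekeeping lists were Eif6 and Eif4g1, both translation initiation factors, and Psma7.

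Eif6 had percentiles of 81.1 and 72.4 in CINs against 48.7 and 58.4 in non-CINs. Eif4g1 was higher in non-CINs at 1 of its 2 regions, with 51.7 and 24.96 in CINs against 70.8 and 47.1 in non-CINs, and its replicates differed by more than its populations. The other region of Eif4g1 had 34.9 and 82.9 in CINs against 70.8 and 67.6 in non-CINs, in opposite directions in the replicates. The region of Psma7, a subunit of the proteasome core, had 88.6 and 86.1 in CINs against 76.7 and 72.7 in non-CINs. It lay between Psma7 and Ss18l1, a subunit of the neuronal BAF chromatin remodelling complex, and cannot be assigned to either gene.

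The sequence around the TSS of most regions showed the features of CpG-island promoters. These bases can lie outside the region itself. A TSS was contained in 85.4% of the promoter regions, in 67.7% of those higher in CINs and in 69.9% of those higher in non-CINs. In 300 bases around the TSS, from 250 upstream to 50 downstream, 77.8% of the 5072 distinct TSSs of promoter regions were CpG-rich, meaning at least 50% G and C and a ratio of observed to expected CpG of at least 0.6, against 44.9% of all 41409 protein-coding TSSs. Promoters higher in CINs were CpG-rich in 64.4% and those higher in non-CINs in 52.6%. CpG-rich regions were stronger, with median percentiles of 89.1 and 86.2 in CINs against 88.8 and 83.3 in non-CINs, where the 1126 others had 82.3 and 76.0 in CINs against 81.8 and 73.3 in non-CINs. Of the CpG-rich regions 4.94% were higher in CINs and 2.61% in non-CINs, and of the others 9.59% and 8.26%.

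Motif letters were searched on both strands in the same 300 bases, and a match is a description of the sequence, not evidence of binding. The GC box (GGGCGG) was found at 67.6% of the promoter regions and 45.4% of all protein-coding TSSs, the ETS motif (CCGGAAG) at 21.9% and 11.2%, the NRF1 motif (GCATGCGC) at 6.31% and 3.48% and the YY1 motif (AAGATGGC) at 5.28% and 3.30%. The CRE (TGACGTCA) was found at 3.92% and 2.28%, the MYC E-box (CACGTG) at 10.1% and 7.55% and the CCAAT box (CCAAT) at 37.5% and 36.8%. The TATA box (TATAAA) was rarer at the promoter regions, at 4.67% against 11.8%, as were the AT-rich DLX motif (TAATTA), at 1.81% against 4.89%, and the proneural E-box (CAGATG), at 9.48% against 14.3%. The SOX motif (CTTTGT) was found at 12.5% against 16.6%, the MEIS motif (CTGTCA) at 15.6% against 17.7% and the POU octamer (ATGCAAAT) at 1.34% against 1.57%. Several of these motifs contain CG, and the CpG content itself differed as given above.

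The promoters that differed between populations had lower shares of the ETS, NRF1 and YY1 motifs than all promoter regions. The ETS motif was found at 13.2% of those higher in CINs and 6.63% of those higher in non-CINs, the NRF1 motif at 2.97% and 2.55% and the YY1 motif at 1.65% and 2.04%. The DLX motif, which matches the core bound by the DLX homeobox factors of interneurons, was found at 2.31% of promoters higher in CINs and 3.57% of those higher in non-CINs, between the 1.81% of all promoter regions and the 4.89% of all TSSs. The SOX motif was found at 16.8% of promoters higher in CINs and 10.2% of those higher in non-CINs, on either side of the 12.5% of all promoter regions. The TATA box was found at 4.62% and 4.08%. As 7 promoters in each set held a DLX match, its shares rest on few regions, and no difference in motif shares was tested.

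H3K27me3 was measured independently of the rule that chose the regions, apart from the input, which served both marks of a sample. Of the 5075 promoter regions 4813 overlapped no H3K27me3 peak, and 262 (5.16%) overlapped one in at least 1 of the 4 lists, 129 of them in 1 list only. H3K27me3 was present in all 4 lists at 37 regions, in CINs only (both lists, with no peak in non-CINs) at 18, and in non-CINs only at 9. The marks were read in pooled cells, so that a region with both marks may carry them in different cells, on different alleles or on neighbouring nucleosomes, which cannot be told apart.

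At the centre of the region, H3K27me3 was present in both CIN lists at 29 promoter regions (0.571%) and at 136 of the 21738 other common regions (0.626%). The odds ratio was 0.913 (95% interval 0.611 to 1.36), and two-sided Fisher's exact test did not separate the 2 classes (p = 0.765, adjusted p = 0.765 over 2 tests). In non-CINs the counts were 17 (0.335%) and 105 (0.483%), with an odds ratio of 0.692 (0.414 to 1.16, Fisher's exact p = 0.201, adjusted p = 0.403). Regions are not independent samples, and the test covers the spread across regions only. On these same regions, each single H3K27me3 list had a lower centre share at promoter regions than at the other common regions. For replicate 1 the CIN list had 0.808% against 0.856%, and the non-CIN list 0.847% against 0.888%. For replicate 2 the CIN list had 0.887% against 1.29%, and the non-CIN list 0.552% against 0.966%. With both marks cut to 1 replicate, which redraws the regions, the direction differed between replicates. By the same exact test, with replicate 1 alone the odds ratios were 1.34 in CINs (adjusted p = 0.0186) and 1.41 in non-CINs (adjusted p = 0.00591), and with replicate 2 alone they were 0.777 (adjusted p = 0.0834) and 0.664 (adjusted p = 0.0316). With all 4 H3K27ac lists but CIN replicate 1, the odds ratio in CINs was 1.01.

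The 8 regions with the strongest H3K27me3 in all 4 lists were those of Skap2, Nrn1, Zc3hav1, Pdgfra, Fezf2, Sptb, Klf2 and Tmeff2. Skap2 (chr6:52012795-52013026) had H3K27me3 percentiles of 99.6 and 99.5 in CINs against 99.6 and 99.7 in non-CINs, from peaks of 18081 to 26343 bp, around an H3K27ac region of 232 bp with H3K27ac percentiles of 77.1 and 78.5 in CINs against 67.3 and 75.5 in non-CINs. Pdgfra, the receptor that marks oligodendrocyte precursors, had H3K27me3 percentiles of 97.9 and 98.5 in CINs against 99.2 and 98.5 in non-CINs over an H3K27ac region of 152 bp. Fezf2 had 96.0 and 96.3 in CINs against 96.8 and 95.5 in non-CINs, from peaks of 10673 to 23594 bp, over an H3K27ac region of 1805 bp. Over the 8 regions the H3K27me3 peaks ranged from 646 to 26343 bp. None of the 8 was above the 90th H3K27ac percentile in any list, and Skap2 alone was above the 65th in all 4.

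H3K27me3 in CINs only was found at Hey2, Ccn2, Ccnd1, Slc35a3, Frem2, Smad3, Nebl, Gja1, Tmem63a and Rxrg, among others. Hey2, a Notch effector, had H3K27me3 percentiles of 96.4 and 97.8 in CINs and no peak in non-CINs, and H3K27ac percentiles of 71.1 and 62.9 in CINs against 81.5 and 69.0 in non-CINs. Ccnd1, the cyclin of the G1 phase, had 82.3 and 90.9 in CINs and no peak in non-CINs, and H3K27ac percentiles of 72.7 and 67.7 in CINs against 80.3 and 87.2 in non-CINs. At both genes H3K27ac was present in both populations, and in each replicate higher in the one without H3K27me3. Over the 18 regions, H3K27ac was lower in CINs at 14 in replicate 1 and at 16 in replicate 2, where 49.3% and 37.3% of all promoter regions were. Among the exceptions, Tmem63a had H3K27ac percentiles of 75.2 and 29.3 in CINs against 45.3 and 30.7 in non-CINs.

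The 9 regions with H3K27me3 in non-CINs only were at Tnrc6c, Pigz, Pnmal2, Phyhipl, Phldb2, Scrt2, Clstn3, Dll3 and Abcg4. Tnrc6c, a component of the microRNA silencing complex, had the strongest, with H3K27me3 percentiles of 96.4 and 95.4, and H3K27ac percentiles of 84.4 and 90.8 in CINs against 82.3 and 59.4 in non-CINs. Scrt2 had H3K27me3 percentiles of 20.8 and 40.9, from peaks of 276 and 200 bp. Clstn3, a synaptic adhesion protein, had 33.9 and 4.76, with H3K27ac percentiles of 93.5 and 84.7 in CINs against 70.9 and 45.8 in non-CINs. Apart from Tnrc6c, Pigz and Pnmal2 these H3K27me3 peaks were under the 50th percentile of their list in at least 1 replicate. H3K27ac was higher in CINs at 8 of the 9 regions in replicate 1 and at 6 in replicate 2, where 50.7% and 62.7% of all promoter regions were. Pnmal2 and Phldb2 were higher in CINs in replicate 1 and in non-CINs in replicate 2.

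The question of whether H3K27me3 followed the opposite direction to H3K27ac could be put to few regions. Of the 303 promoters higher in CINs, 4 had H3K27me3 in non-CINs only (Abcg4, Clstn3, Pigz and Scrt2) and 0 in CINs only, and exact McNemar's test gave p = 0.125, the smallest that 4 regions allow (adjusted p = 0.125). Of the 196 promoters higher in non-CINs, 6 had H3K27me3 in CINs only (Fgf12, Fzd7, Gja1, Maf, Slc35a3 and Smad3) and 1 in non-CINs only (Phyhipl), with an exact p of 0.125 (adjusted p = 0.125), where 0.0156 was the smallest possible. Fgf12 has 2 regions, and the other was higher in CINs, by 38.1 and 12.8 points. Of the 11 differing regions with H3K27me3 in 1 population, 10 had H3K27me3 in the population with less H3K27ac, but neither test passed 0.05. The outcome changed with the libraries. For promoters higher in non-CINs, the counts were 12 and 2 without CIN H3K27ac replicate 1 (exact McNemar's test, adjusted p = 0.0259) and 30 and 2 with replicate 2 alone (adjusted p = 4.93e-07). For promoters higher in CINs, 42 had H3K27me3 in non-CINs only and 17 in CINs only with replicate 1 alone (exact McNemar's test, adjusted p = 0.00309). With 1 replicate alone each population is 1 library for each mark, and in all of these tests p covers the spread across regions only, which are not replicates of a population.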

How the data were processed

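Per the labels and the study's methods, the authors aligned reads to mm10 and called broad peaks for each replicate against its input, with BWA 0.7.15, SAMtools, MACS2 2.2.7 and deepTools 3.4.3 in the submitters' processing notes (the study's methods name another MACS2 version). The deposited fold enrichment was computed by the authors' peak caller as ChIP over input signal, a ratio, and the deposited −log10 q values are from the same caller. Neither is a read count, and read depth was not used here. The 4 inputs entered through the authors' peak calling only.

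Peaks were merged and intersected with the GENCODE vM21 basic annotation of mm10. A region took the highest percentile of the deposited peaks that overlap it (or, for 6 to 22 common regions a list, of the merged peak). TSSs were those of protein-coding transcripts. CINs and non-CINs of the same replicate number were compared. Genes named are the 10 promoters with the highest lowest percentile, the 12 with the largest smaller difference in each direction, differing promoters of 16 gene lists, up to 10 in each direction with H3K27me3 in 1 population only, 8 with it in all lists, and those next to the limits. Other genes of the lists (such as Aqp4 and Nlgn2) and Fgf12 and Fzd7 were named after their values were seen, and values of some list genes are not reported here. The members and lists were chosen with earlier results of these data known. Fisher's and McNemar's exact tests were two-sided, with Benjamini-Hochberg adjustment over 2 tests each. The calculations used Python 3.11.15 with matplotlib 3.10.9, pysam 0.24.0, SciPy 1.17.1 and NumPy 2.4.6, and were tested on simulated lists and against bedtools. Alternatives were other merging gaps, length limits, promoter windows, thresholds, rankings and replicates.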

Additional observations from a re-analysis of the deposited data

How the results depend on the processing

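Of 131 values recomputed under the alternatives, 91 kept their direction and side of the threshold or stayed within 1.5 times. The differences at the 24 promoters named for them kept their sign in all 408 values that could be computed, but 67 of these moved by more than the spread between replicates, and the smallest were 6.62 points at promoters higher in CINs and 8.28 at those higher in non-CINs, under the limit of 10. The cause of the changes below was not tested, and leaving out an H3K27ac list also redraws the regions. Promoters from 500 bp upstream to 500 bp downstream gave 8121 regions, 498 higher in CINs and 330 in non-CINs, with H3K27me3 odds ratios of 0.596 (adjusted p = 0.00637, Fisher's exact test) and 0.423 (adjusted p = 4.62e-04). Gene 5′ ends only gave 172 and 118 differing promoters, with 165 of the 300 and 105 of the 192 genes still called. A limit of 5 points gave 700 and 444, and a limit of 20 points 86 and 60. Promoters higher in CINs numbered 461 with no merging and 615 when percentiles were taken among common regions. Leaving out libraries gave 219 to 930 promoters higher in CINs and 162 to 758 higher in non-CINs, odds ratios of 0.768 to 1.34 in CINs and 0.595 to 1.41 in non-CINs, and non-CIN shares of the regions with H3K27me3 in 1 population of 57.5% to 100% at promoters higher in CINs and 6.25% to 39.6% at those higher in non-CINs. The odds ratio in CINs was 1.14 with a gap of 1000 bp and 1.31 with any overlap, 1.14 in non-CINs with any overlap, and in non-CINs 0.465 with H3K27ac peaks of −log10 q of at least 4 (Fisher's exact test, adjusted p = 0.0421). H3K27me3 of replicate 2 only gave 0.683 and 0.569 (adjusted p = 0.0186 and 0.00708) and a non-CIN share of 6.25% at promoters higher in non-CINs (exact McNemar's test, adjusted p = 0.00104). With replicate 1 only, the share was 81.25% at promoters higher in CINs (exact McNemar's test, adjusted p = 0.0425). At promoters higher in non-CINs it was 0% with no merging (0 of 8, exact McNemar's test, adjusted p = 0.0156) and 10% with a limit of 5 points (adjusted p = 0.0430).

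The labels do not say what a replicate number shares. The replicate deviations of CINs and non-CINs had a correlation of 0.36 over the promoter regions. Without the replicate block 436 promoters were higher in CINs and 296 in non-CINs (257 and 161 genes shared with the 300 and 192 of the block), with a non-CIN share of 10% at the latter (exact McNemar's test, adjusted p = 0.0430), and with crossed numbers 205 and 164 (155 and 105 genes shared). Over the alternatives with a limit of 10 points, at least 150 of the 300 and 105 of the 192 genes were still called. The depth of the lists was not used, and a missing peak means only that none was called.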

Other observations

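The promoter regions on the X chromosome stood apart from those on the autosomes, a pattern chosen after the values were seen and not tested. Of the 146 X-linked regions 19 (13.0%) were higher in CINs and 1 (0.685%) in non-CINs, where 5.97% and 3.86% of all promoter regions were. The median percentile in CINs was 82.7 and 81.3 in the 2 replicates, against 77.5 and 75.8 in non-CINs. The median difference was 3.45 points in favour of CINs in replicate 1 and 3.45 in replicate 2, and CINs were above non-CINs at 101 of the 146 in replicate 1 and at 94 in replicate 2, where 50.7% and 62.7% of all promoter regions were, so that the count in replicate 2 was close to that of all regions. At the 399 other common regions on the X, 58 (14.5%) were higher in CINs and 54 (13.5%) in non-CINs, where 2399 and 4024 (18.5%) of the 21738 other common regions on all chromosomes were, with median differences of 2.75 and 0.61 points.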
